A study of Arabidopsis thaliana with 44 samples.

Results

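The genes described here are 135 of the 13355 Arabidopsis thaliana genes measured by a probe set with a single annotated gene. They were chosen from the arrays themselves: at 12 h after irradiation, the change against unirradiated day 1 seedlings of the same genotype was at least 0.7 log2 units higher in atm-1 than in WT after gamma rays, and also after HZE. Where a gene had several such probe sets, the one with the highest mean level stood for it. The thresholds were met by 140 genes, of which AUR1, AUR2, AUR3, 3xHMG-box2 and HTB2 were left out by name, and a sixth gene left out by name, PRL, did not meet them. The working name of the set was genes held low by ATM at 12 h, and the levels behind the rule go with that name for only part of it, as set out with the day 1 levels.

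Messenger RNA was measured in whole seedlings on 44 single-colour Affymetrix arrays, 2 in each of 22 groups. The irradiated atm-1 groups, a mutant of the kinase ATM, were sampled at 1.5, 6, 12 and 24 h after gamma rays (100 Gy) or after HZE (30 Gy), a beam of accelerated iron nuclei. The irradiated WT groups received the same doses and were sampled at 1.5, 3, 6, 12 and 24 h, and unirradiated groups of atm-1 and of WT were sampled on day 1 and on day 2. RNA was pooled from many plants for each array. Nothing in the labels says that replicates came from separate cultures, so p-values cover only the spread between these arrays, which may be technical. Seedlings were 6 days old in the 24 h and day 2 groups and 5 days old in the others. Both genotypes were sampled at the same clock times. Gamma 12 h seedlings were taken at 8:40 pm on day 1 and HZE 12 h seedlings at 1:09 am on day 2. Collection of unirradiated seedlings was at 10:45 am for the day 1 groups and at 9:15 am for the day 2 groups. A change against unirradiated seedlings within a genotype therefore cannot be told apart from time of day in most groups, while a difference between genotypes compares seedlings of the same hour. HZE was given in 2 runs, and which array belongs to which run was not known here. The annotation used pairs ATM with no single-gene probe set, so the genotype labels were not checked on it. In whole seedlings, fewer cells of a type and less RNA per cell cannot be told apart.

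ATM is a protein kinase that is activated at DNA double-strand breaks. In plants it phosphorylates the transcription factor SOG1, which turns on repair and checkpoint genes, and the same response lowers the transcripts of many genes used for mitosis through repressor MYB proteins. Dividing cells make histones, topoisomerases, kinesins and spindle checkpoint proteins at set stages of the cell cycle, so such transcripts fall when cells stop cycling.

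Array medians ran from 5.73 to 5.98 log2 units, the lowest being atm-1 gamma 6 h replicate 1, and replicate arrays correlated at 0.990 to 0.997 across probe sets. Levels are log2 values after robust multi-array averaging (RMA), and all differences below are log2 differences, so 1 unit is a 2-fold change. Genes without a symbol are given by locus code.

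The values that chose the members are given as a description, with no test. After gamma rays the 12 h difference, atm-1 change minus WT change, had a median of 0.94 over the members and ran from 0.70 to 2.27. After HZE its median was 1.07, with a range of 0.72 to 3.45. Over all 13355 genes the medians were -0.01 and 0.01. Both differences use the same 4 day 1 arrays, so they are not independent of each other. The genes that met the thresholds were 1.05% of those measured. Just inside the threshold lay AT4G33550, AT5G03230 and 3xHMG-box1, whose smaller difference was 0.708, 0.701 and 0.701. Just outside lay AT4G31470 at 0.698, sks16 at 0.696 and AT3G19430 at 0.68.

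**Figure D1:**
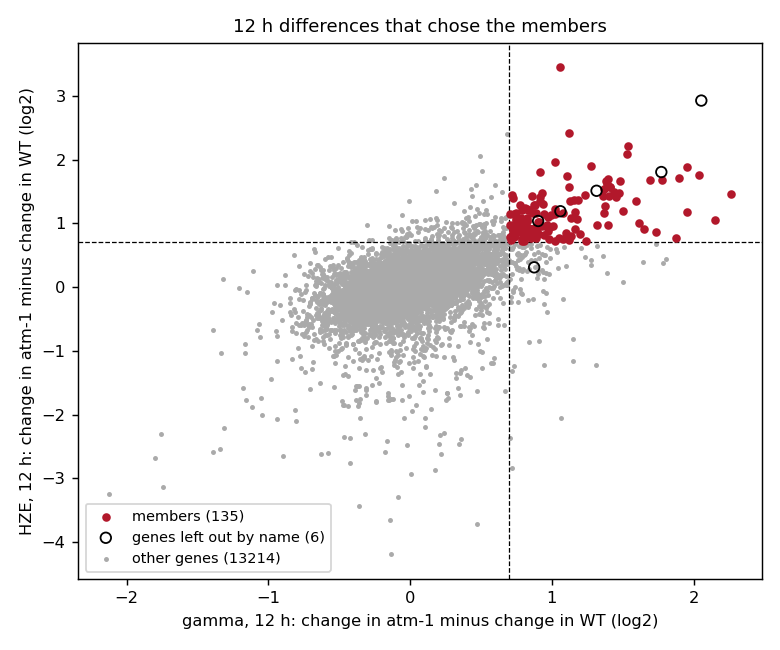
Difference between genotypes of the 12 h change against day 1 (atm-1 minus WT, log2) after gamma rays (x axis) and HZE (y axis), one point per gene, with dashed lines at 0.7. The 135 members fill the upper right corner by construction, and 5 of the 6 genes left out by name lie among them.

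In atm-1 the median 12 h change of the members against day 1 was 0.26 after gamma rays and 0.37 after HZE, against -0.72 and -0.70 in WT. Of the 135 members, 114 were below their day 1 level in WT after gamma rays, and 114 were below it after HZE. The most frequent form, found for 57 members, was a level above day 1 in atm-1 and below it in WT after both radiations. A further 28 members were below day 1 in both genotypes after both radiations, 14 were above it in both, and 36 had other combinations.

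The level at 12 h itself was higher in atm-1 than in WT after both radiations for 116 members, and by at least 0.7 log2 units for 65. Both atm-1 arrays lay above both WT arrays for 107 members after gamma rays, beside 18.7% of all genes, and for 106 after HZE, beside 21.7% of all genes. These counts come from the arrays of the rule, so nothing is read from them. The remaining 19 members were not higher in atm-1 at 12 h after at least 1 radiation. All 19 had a lower unirradiated day 1 level in atm-1, which the rule fixes in advance for such members. Over all members, the day 1 level in atm-1 minus that in WT had a median of -0.20, and it was -0.7 or lower for 35 members (25.9%), against 0.824% of all genes. For 47 members (34.8%), the lower day 1 level in atm-1 made up as much of the gamma difference as the 12 h levels did, or more. With day 2 seedlings in place of day 1, 56 of the 135 members still met both thresholds, as did 0.734% of all genes. The rule itself favours a lower day 1 level in atm-1, and the day 2 version uses the same 12 h arrays. These shares are therefore a description, and their excess over all genes is not read as a result.

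AT1G14960 showed this form. On day 1 its level was 4.46 and 4.38 in unirradiated atm-1, against 5.93 and 6.25 in unirradiated WT. At 12 h after gamma rays it was 6.15 and 6.14 in atm-1, against 5.86 and 6.21 in WT, so the arrays of both genotypes lay together. ZW9 had day 1 levels of 4.66 and 4.23 in atm-1, against 5.72 and 5.71 in WT, and 12 h gamma levels of 4.45 and 4.35 in atm-1, against 3.93 and 4.22 in WT. AT3G55790 stood at 4.44 and 4.66 in atm-1 on day 1, against 6.40 and 6.29 in WT, and at 5.76 and 5.56 in atm-1 at 12 h after gamma rays, against 5.98 and 6.13 in WT. For these genes the day 1 groups did not overlap and the 12 h difference rests mainly on them.

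Of the tissue marker lists, the root hair genes were also lower in atm-1 on day 1. The 3 root hair genes measured of 12 listed (EXPA7 and EXPA18, expansins, and XTH26, a xyloglucan endotransglucosylase) averaged 4.53 to 4.75 in day 1 atm-1, against 5.20 to 5.29 in day 1 WT. On day 2 they averaged 4.72 to 5.02 in atm-1, against 4.98 to 5.20 in WT. At 12 h after gamma rays they averaged 4.84 to 4.88 in atm-1, against 5.26 to 5.29 in WT, and after HZE 4.89 to 4.92 in atm-1, against 4.76 to 4.98 in WT. At 1.5 h after gamma rays the order was reversed, with 4.95 to 5.07 in atm-1, against 4.63 to 4.69 in WT. That was the only sampled time at which both atm-1 arrays lay above both WT arrays. The 4 stomatal lineage genes averaged 6.11 to 6.13 in day 1 atm-1, against 6.13 to 6.14 in day 1 WT, and the single meristem gene stood at 3.62 to 3.79 in atm-1, against 3.71 to 3.98 in WT. None of the 3 root hair genes is a member, and their part in the day 1 difference of the members was not tested.

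**Figure D2:**
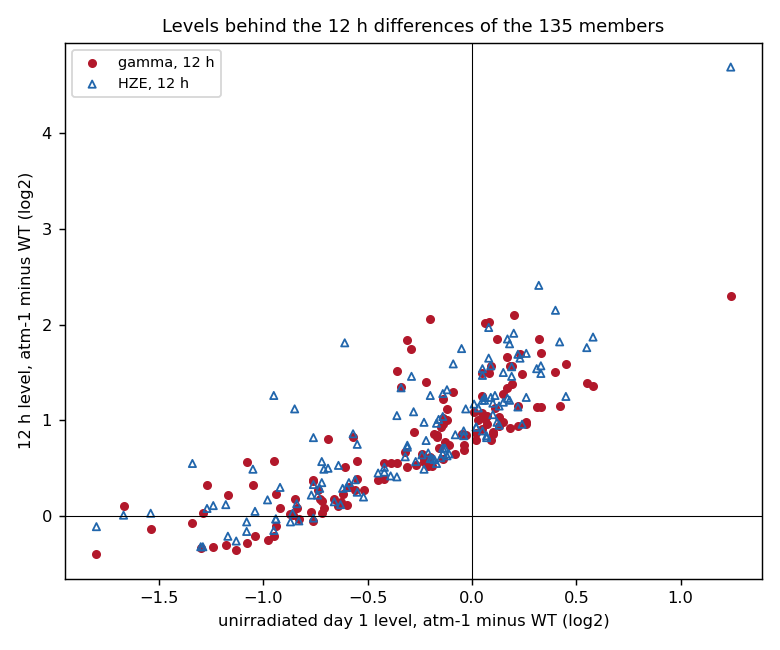
Level in atm-1 minus level in WT (log2) in unirradiated day 1 seedlings (x axis) and at 12 h (y axis), one point per member and radiation, circles for gamma rays and triangles for HZE. Points near the horizontal line at the left have similar 12 h levels in both genotypes and a lower day 1 level in atm-1, while those above the line near x = 0 differ at 12 h alone; the point at the top right is ECS1.

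Tests compared only groups the rule did not use: the 1.5, 3, 6 and 24 h groups and the unirradiated day 2 groups. In each, atm-1 change minus WT change was taken against day 2 seedlings of the same genotype with limma, with Benjamini-Hochberg adjustment over all 13355 genes. The 12 h and day 1 arrays were in the same model and added to its estimate of spread. Calls were made at an adjusted p under 0.05. All members called at 6 h were called higher in atm-1, and most members were not called. After gamma rays 22 of 135 (16.3%) were called higher and 0 lower, beside 1.03% of all genes called higher and 2.51% called lower (3.54% in all). After HZE 24 (17.8%) were called higher and 0 lower, beside 1.16% of all genes called higher and 2.19% called lower (3.35% in all). The median difference over the members was 0.34 after gamma rays and 0.41 after HZE, against -0.04 and 0.02 over all genes, and the difference was below 0 for 36 members after gamma rays and for 25 after HZE.

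The same direction was found at 1.5 h after gamma rays, where 21 members (15.6%) were called higher in atm-1 and 0 lower, beside 2.34% of all genes called higher and 2.19% called lower, with a median of 0.33 against -0.05. At 1.5 h after HZE only AT3G06070 was called, higher in atm-1, beside 0.524% of all genes called higher and 1.64% called lower (2.16% in all), and this call was lost in 6 of 8 refits with 1 array left out. At 24 h after gamma rays AT5G20790 was the only member called, higher in atm-1, beside 0.0899% of all genes called higher and 0.112% called lower (0.202% in all). At 24 h after HZE AT3G27050 was the only one, higher in atm-1, beside 0.0599% called higher and 0.0674% called lower. These 3 single calls were named after their values were seen. Whether the genotype difference itself changed between 1.5, 6 and 24 h, or between the radiations, was not tested.

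All 6 of these comparisons share the 4 day 2 arrays. Of the 135 members, 47 (34.8%) were called higher in atm-1 in at least 1 of them, beside 4.02% of all genes, and 88 were called in none. The counts lean on single arrays. Without WT gamma 6 h replicate 1, or without WT day 2 replicate 2, 14 members were called at gamma 6 h. Without WT gamma 1.5 h replicate 2, 12 were called at gamma 1.5 h. Without atm-1 day 2 replicate 1, 14 were called at HZE 6 h, and 15 without atm-1 HZE 6 h replicate 2. When levels were compared directly between the genotypes at the same time, with no unirradiated seedlings, 54 members were higher in atm-1 and 1 lower at gamma 6 h, beside 3.71% and 8.04% of all genes. At HZE 6 h the same comparison found 49 higher and 1 lower, beside 4.02% and 4.56% of all genes. Direct comparison at gamma 1.5 h found 42 higher and 1 lower, beside 4.46% and 4.5%, and at HZE 1.5 h 16 higher and 2 lower, beside 1.59% and 2.57%. At 24 h it found 15 higher and 2 lower after gamma rays, beside 1.86% and 1.98%, and 29 higher and 4 lower after HZE, beside 0.973% and 1.62%. The small numbers of calls at 24 h and at HZE 1.5 h were thus found for the change against day 2. The direct comparison leaves out the day 2 arrays and their spread, so the 2 sets of counts differ in precision. Member medians at gamma 24 h were 0.14 for the change and 0.17 for the level. At HZE 1.5 h they were 0.16 and 0.19, and at HZE 24 h 0.17 and 0.27. Whether change and level differed was not tested.

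**Figure D3:**
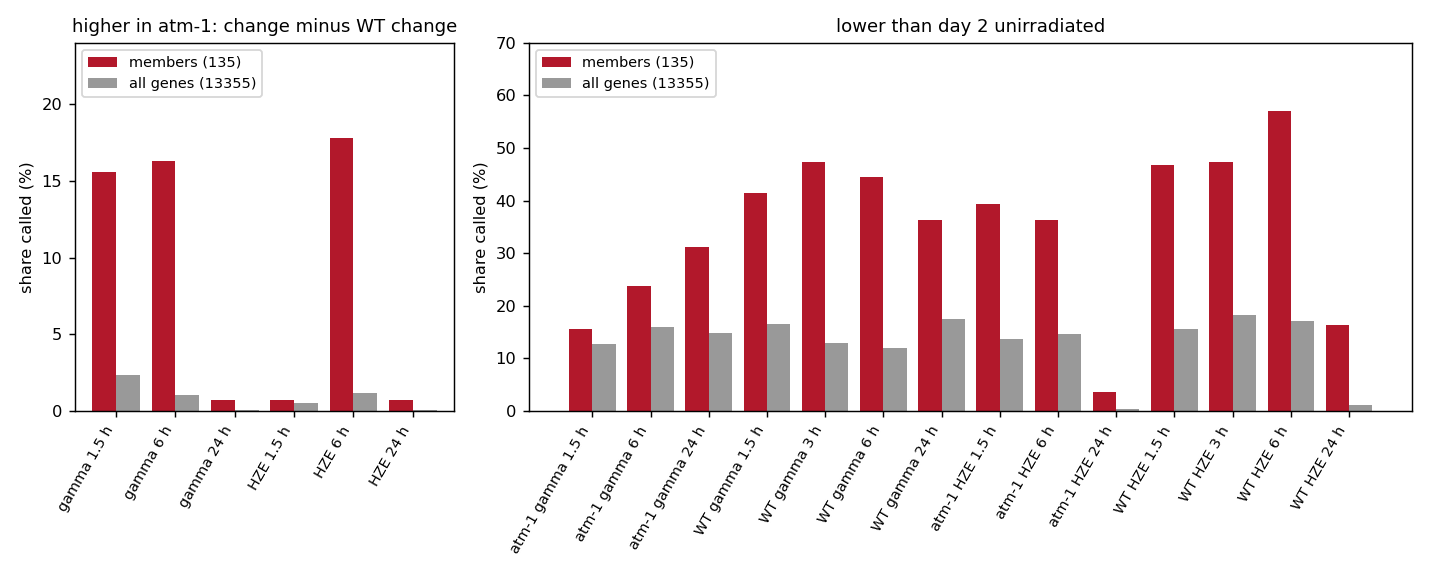
Share of the 135 members (red) and of all 13355 genes (grey) called at an adjusted p under 0.05 between groups the rule did not use. The left panel gives genes whose change was higher in atm-1 than in WT, where members stand at 15.6% to 17.8% at gamma 1.5 h, gamma 6 h and HZE 6 h, and the right panel gives genes lower than unirradiated day 2 seedlings in each genotype.

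In which genotype the called members moved was read from each genotype's own comparison with day 2, which uses the same arrays. Of the 22 called at gamma 6 h, 18 were called lower than day 2 in WT, 6 were called higher in atm-1 and 5 were called lower in atm-1. Of the 24 called at HZE 6 h, 19 were called lower in WT, 7 higher in atm-1 and 7 lower in atm-1. Of the 21 called at gamma 1.5 h, 19 were called lower in WT, 3 higher in atm-1 and 3 lower in atm-1. A call higher in atm-1 already favours a fall in WT or a rise in atm-1 on these arrays. The same split was not counted over all genes called higher, so it is not read as particular to the members.

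Genes of chromosome structure and cell division are given together, grouped from their annotated names after the values were seen. TOPII encodes topoisomerase II, which untangles sister DNA molecules. Its level at 6 h after gamma rays was 5.91 and 6.20 in atm-1, against 4.98 and 4.74 in WT, and at 6 h after HZE 5.87 and 5.81 in atm-1, against 4.71 and 4.52 in WT. On day 2, unirradiated, it was 6.90 and 6.61 in atm-1, against 6.84 and 6.25 in WT. The 6 h groups did not overlap and the day 2 groups did. The difference of change was 0.99 after gamma rays (SE 0.27, adjusted p = 0.0351) and 1.02 after HZE (SE 0.27, adjusted p = 0.0281), and with 1 of the 8 arrays left out in turn the call was lost in 4 and 6 of 8 refits. TOPII fell in both genotypes at 6 h after HZE, with changes against day 2 of -0.91 in atm-1 (SE 0.19, adjusted p = 0.000382) and -1.93 in WT (SE 0.19, adjusted p = 1.82e-09). At 12 h, which the rule used, it stood at 7.14 and 7.26 in atm-1 after gamma rays, against 5.52 and 5.90 in WT, and at 7.89 and 7.53 in atm-1 after HZE, against 6.00 and 6.12 in WT.

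HTB1 encodes a histone H2B, a protein of the nucleosome core. It stood at 8.49 and 8.69 in atm-1 at 6 h after HZE, against 7.49 and 7.75 in WT, and on day 2 at 8.53 and 8.60 in atm-1, against 8.60 and 8.63 in WT. Its difference of change was 1.03 (SE 0.19, adjusted p = 0.000833) and was called with any 1 array left out. Against day 2, HTB1 fell by 1.00 in WT (SE 0.13, adjusted p = 5.4e-07), and the atm-1 arrays at 6 h overlapped those of day 2. After gamma rays the 6 h levels were 8.53 and 8.59 in atm-1, against 7.86 and 7.92 in WT, with a difference of change of 0.73 (SE 0.19, adjusted p = 0.0249) that was lost in 7 of 8 refits. AT2G37470, a locus on the histone list, stood at 7.07 and 6.80 in atm-1 at 6 h after gamma rays, against 5.65 and 5.81 in WT. Its difference of change was 1.06 (SE 0.22, adjusted p = 0.00268), and 0.71 at 6 h after HZE, where it did not pass (SE 0.22, adjusted p = 0.0685).

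UBC20 encodes a ubiquitin-conjugating enzyme. It stood at 7.63 and 7.08 in atm-1 at 6 h after gamma rays, against 5.98 and 6.40 in WT, a difference of change of 0.82 (SE 0.23, adjusted p = 0.0355) that was lost in 5 of 8 refits. At 6 h after HZE UBC20 was lower than day 2 in both genotypes, and its difference of change was not called. Its changes there were -1.40 in atm-1 (SE 0.16, adjusted p = 2.98e-08) and -1.57 in WT (SE 0.16, adjusted p = 2.73e-09). BUB3.1, of the spindle assembly checkpoint, FU, the kinase FUSED needed for cytokinesis, WYR, an INCENP-like protein of the chromosomal passenger complex, and 3xHMG-box1, a protein that binds mitotic chromosomes, were not called in any of the 6 genotype differences. In WT, BUB3.1 was lower than day 2 at 3 h, with a change of -0.61 after gamma rays (SE 0.14, adjusted p = 0.000995) and -1.21 after HZE (SE 0.14, adjusted p = 1.44e-08). The atm-1 seedlings were not sampled at 3 h. At 6 h BUB3.1 changed against day 2 by -0.29 in atm-1 and -0.40 in WT after gamma rays. After HZE it changed by -0.39 in atm-1 and -0.45 in WT at 6 h. BUB3.1 at 12 h stood at 7.43 and 7.54 in atm-1 after gamma rays, against 6.24 and 6.68 in WT. WYR and 3xHMG-box1 were near the low end of the arrays' range, at 4.68 and 4.28 and at 4.70 and 4.55 in atm-1 at 12 h after gamma rays, against 3.81 and 3.73 and 3.72 and 3.62 in WT.

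**Figure D4:**
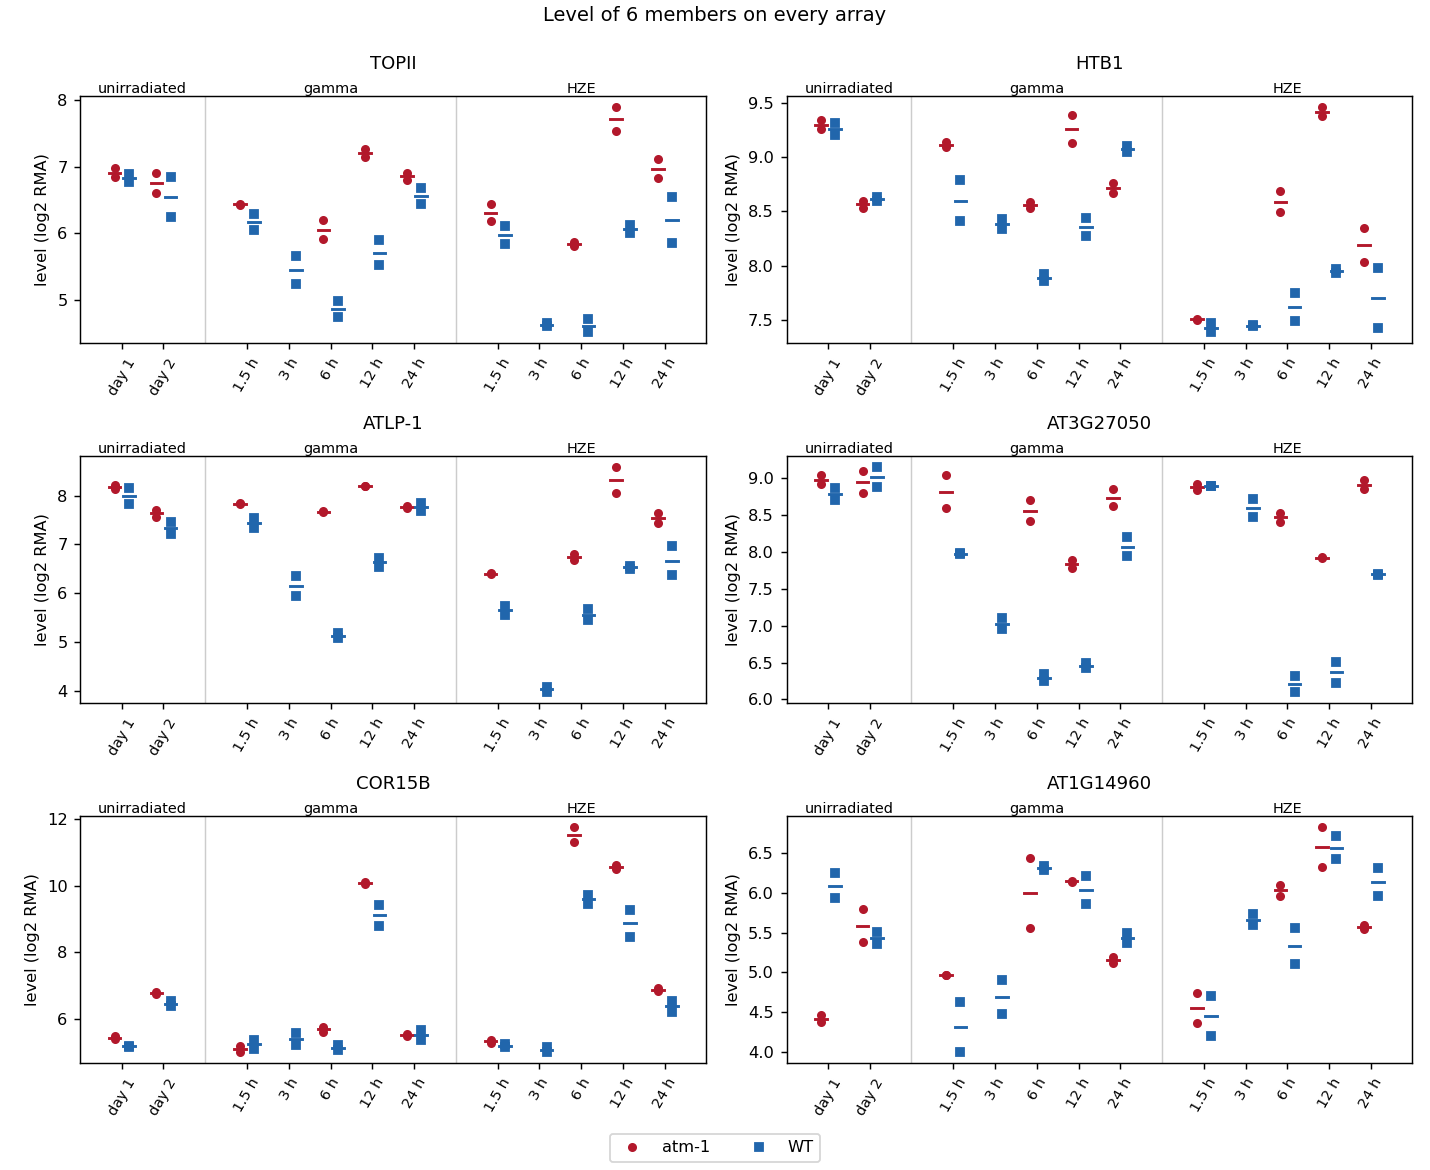
Level (log2 RMA) of 6 members on every array, atm-1 as red circles left of WT as blue squares, with a bar at the mean of each pair of replicates. Unirradiated seedlings are at the left, then gamma rays and HZE from 1.5 to 24 h, and atm-1 was not sampled at 3 h. TOPII and AT3G27050 fall in WT at 6 h and less in atm-1. ATLP-1 falls in WT at 6 h after both radiations, and in atm-1 at 6 h after HZE only, by less. COR15B climbs in both genotypes at 12 h, and AT1G14960 differs mainly on day 1.

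The largest differences of change at 6 h after gamma rays among the members belonged to AT3G27050 and ATLP-1. AT3G27050 stood at 8.42 and 8.70 in atm-1 at 6 h after gamma rays, against 6.34 and 6.25 in WT, and at 8.41 and 8.53 in atm-1 at 6 h after HZE, against 6.10 and 6.32 in WT. On day 2 it was 9.10 and 8.80 in atm-1, against 8.88 and 9.15 in WT. The fall at 6 h was larger in WT: AT3G27050 changed against day 2 by -0.38 in atm-1 after gamma rays (SE 0.14, adjusted p = 0.0424), which did not pass after cyclic loess (adjusted p = 0.324 with limma), and by -2.72 in WT (SE 0.14, adjusted p = 1.44e-15). The difference of change was 2.33 after gamma rays (SE 0.19, adjusted p = 1.6e-09) and 2.33 after HZE (SE 0.19, adjusted p = 9.67e-10), and both were called with any 1 array left out. AT3G27050 was also called at gamma 1.5 h, with 0.91 (SE 0.19, adjusted p = 0.00347), and at HZE 24 h, with 1.29 (SE 0.19, adjusted p = 0.000853).

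ATLP-1 encodes a thaumatin-like protein. It stood at 7.68 and 7.66 in atm-1 at 6 h after gamma rays, against 5.17 and 5.08 in WT, and at 6 h after HZE at 6.80 and 6.68 in atm-1, against 5.67 and 5.44 in WT. The groups did not overlap in either. Its difference of change was 2.24 after gamma rays (SE 0.22, adjusted p = 4.85e-08), called with any 1 array left out, and 0.88 after HZE (SE 0.22, adjusted p = 0.0207), lost in 4 of 8 refits. ATLP-1 in WT was at its lowest at 3 h after HZE, at 3.97 and 4.08, a change against day 2 of -3.30 (SE 0.16, adjusted p = 7.42e-17), a time at which atm-1 was not sampled.

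AT1G54740, AT3G28320, AT4G10910 and AT5G54970 were each called in 3 of the 6 genotype differences, which share the day 2 arrays, and were named after their values were seen. AT4G10910 stood at 8.43 and 8.62 in atm-1 at 6 h after HZE, against 6.08 and 7.04 in WT, a difference of change of 2.05 (SE 0.30, adjusted p = 4.02e-05). AT5G54970 stood at 8.03 and 8.20 in atm-1 at 6 h after HZE, against 6.21 and 6.36 in WT, a difference of 1.68 (SE 0.19, adjusted p = 5.47e-07). Here the atm-1 groups moved up: AT5G54970 was higher than day 2 in atm-1 by 1.70 (SE 0.13, adjusted p = 2.62e-11), and WT at 6 h overlapped its day 2 arrays. AT3G28320 differed by 1.40 at gamma 1.5 h (SE 0.28, adjusted p = 0.00188), by 1.36 at gamma 6 h (SE 0.28, adjusted p = 0.00307) and by 1.53 at HZE 6 h (SE 0.28, adjusted p = 0.000835). Its neighbour on the chromosome, AT3G28310, is also a member and was called at gamma 6 h alone, with 1.45 (SE 0.34, adjusted p = 0.0111), a call lost in 4 of 8 refits. AT1G54740 differed by 0.91 at gamma 1.5 h (SE 0.21, adjusted p = 0.00696), by 0.77 at gamma 6 h (SE 0.21, adjusted p = 0.0338) and by 0.95 at HZE 6 h (SE 0.21, adjusted p = 0.006), calls lost in 1, 4 and 3 of 8 refits. The gamma 6 h call of AT4G10910, with 1.07, was lost in 6 of 8 refits, and the gamma 1.5 h call of AT5G54970, with 0.84, in 3 of 8.

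AT3G02640 and AT4G15830, among the members with the largest 12 h differences, were called lower than day 2 in WT at 1.5, 3 and 6 h after both radiations. At 6 h after gamma rays AT3G02640 was 6.71 and 6.95 in atm-1, against 5.97 and 5.88 in WT. Its change against day 2 was -1.76 in atm-1 (SE 0.16, adjusted p = 2.42e-09) and -2.28 in WT (SE 0.16, adjusted p = 3.51e-12), and its difference of change was not called at any time. AT4G15830 at 1.5 h after gamma rays stood at 6.46 and 6.42 in atm-1, against 5.45 and 5.20 in WT, a difference of change of 0.93 (SE 0.27, adjusted p = 0.0442) that was lost in 5 of 8 refits. AT4G29030 stood at 9.24 and 9.61 in atm-1 at 6 h after gamma rays, against 7.38 and 7.53 in WT, a difference of 1.59 (SE 0.32, adjusted p = 0.00182).

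COR15A and COR15B are neighbouring genes that encode chloroplast proteins induced by cold. COR15B at 6 h after HZE stood at 11.76 and 11.31 in atm-1, against 9.72 and 9.47 in WT, and on day 2 at 6.80 and 6.74 in atm-1, against 6.38 and 6.53 in WT. It was higher than day 2 in both genotypes, by 4.76 in atm-1 (SE 0.19, adjusted p = 4.67e-18) and by 3.15 in WT (SE 0.19, adjusted p = 4.04e-14), and the difference of change was 1.61 (SE 0.27, adjusted p = 0.000235). COR15A at that time stood at 10.56 and 10.40 in atm-1, against 9.57 and 9.61 in WT, and its difference of change was not called. After gamma rays at 6 h COR15B was lower than day 2, with changes of -1.10 in atm-1 (SE 0.19, adjusted p = 6.26e-05) and -1.32 in WT (SE 0.19, adjusted p = 3.38e-06). The gamma 6 h seedlings were taken at 2:55 pm and the HZE 6 h seedlings at 7:24 pm.

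BHLH101, a transcription factor of the iron deficiency response, stood at 8.35 and 8.21 in atm-1 at 1.5 h after gamma rays, against 6.39 and 6.15 in WT. On day 2 its atm-1 arrays were apart from each other, at 5.65 and 6.58, against 5.12 and 5.05 in WT, and its difference of change was not called at any time. GSTU26, a glutathione transferase, was lower than day 2 in WT at 1.5 h after gamma rays, with a change of -1.64 (SE 0.25, adjusted p = 4.01e-06), with levels of 6.76 and 6.91 in atm-1, against 6.16 and 5.80 in WT, and a difference of change of 1.45 (SE 0.35, adjusted p = 0.0113) that was lost in 3 of 8 refits. At 12 h after gamma rays GSTU26 stood at 7.43 and 7.42 in atm-1, against 7.24 and 7.42 in WT, and it entered the set through its day 1 levels of 6.70 and 6.46 in atm-1, against 7.36 and 7.48 in WT. EXLB1, an expansin-like protein of the cell wall, was not called in any genotype difference, though it was lower than day 2 in WT at 6 h after HZE, with a change of -0.91 (SE 0.17, adjusted p = 0.000102).

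AT5G20790 behaved differently after gamma rays. At 24 h it stood at 9.32 and 8.78 in atm-1, against 6.86 and 6.66 in WT, and on day 2 at 3.71 and 3.61 in atm-1, against 3.68 and 3.84 in WT. It was higher than day 2 in both genotypes, by 5.39 in atm-1 (SE 0.16, adjusted p = 1.13e-21) and by 3.00 in WT (SE 0.16, adjusted p = 3.86e-15), and the difference of change was 2.40 (SE 0.22, adjusted p = 5.56e-08). At 24 h after HZE it was 3.88 and 3.87 in atm-1, against 3.80 and 3.90 in WT, and it was not called against day 2 in either genotype.

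ECS1 had the largest HZE difference of the rule and is also the member with the widest gap between replicates. Over the 20 atm-1 arrays its level ran from 3.63 to 9.64 with a median of 6.68, against 3.59 to 4.28 with a median of 3.99 over the 24 WT arrays. At 1.5 h after gamma rays the atm-1 arrays stood at 3.63 and 8.39, and at 12 h at 4.24 and 8.17, while the WT arrays at 12 h stood at 3.93 and 3.89. On day 1, unirradiated, the atm-1 arrays were at 3.89 and 6.58, against 4.00 and 3.98 in WT. ECS1 was not called in any genotype difference.

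Each genotype was also compared with its own day 2 seedlings. In WT, members called lower outnumbered members called higher at every time after both radiations. After gamma rays WT had 56 members lower at 1.5 h (beside 16.5% of all genes), 64 at 3 h (13.0%), 60 at 6 h (12.0%) and 49 at 24 h (17.4%). After HZE WT had 63 lower at 1.5 h (15.5%), 64 at 3 h (18.3%), 77 at 6 h (17.1%) and 22 at 24 h (1.21%). Members called higher in WT after gamma rays numbered 11 at 1.5 h (8.15%, beside 15.7% of all genes), 5 at 3 h (3.7%, beside 11.9%), 4 at 6 h (2.96%, beside 9.91%) and 18 at 24 h (13.3%, beside 14.1%). After HZE they numbered 20 at 1.5 h (14.8%, beside 15.6%), 27 at 3 h (20.0%, beside 19.5%), 6 at 6 h (4.44%, beside 14.8%) and 2 at 24 h (1.48%, beside 2.39%). As shares of the 135 members, those called lower ran from 16.3% to 57.0%.

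In atm-1 fewer members were called lower than in WT at each time sampled in both, a difference of counts that was not tested. After gamma rays atm-1 had 21 members lower at 1.5 h (15.6% of the members, beside 12.7% of all genes), 32 at 6 h (23.7%, beside 15.9%) and 42 at 24 h (31.1%, beside 14.8%). After HZE it had 53 lower at 1.5 h (39.3%, beside 13.6%), 49 at 6 h (36.3%, beside 14.6%) and 5 at 24 h (3.7%, beside 0.419%). Members called higher in atm-1 after gamma rays numbered 17 at 1.5 h (12.6%, beside 10.9% of all genes), 13 at 6 h (9.63%, beside 6.36%) and 21 at 24 h (15.6%, beside 12.8%). After HZE they numbered 24 at 1.5 h (17.8%, beside 13.8%), 17 at 6 h (12.6%, beside 13.7%) and 3 at 24 h (2.22%, beside 1.13%). The counts at 24 h after HZE rest on single arrays, since 8 members in all were called in WT without WT HZE 24 h replicate 2 and 11 without WT day 2 replicate 1, against 24 with all arrays. In atm-1, 3 were called there without atm-1 HZE 24 h replicate 1 and 5 without either atm-1 day 2 array, against 8 with all arrays.

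**Figure D5:**
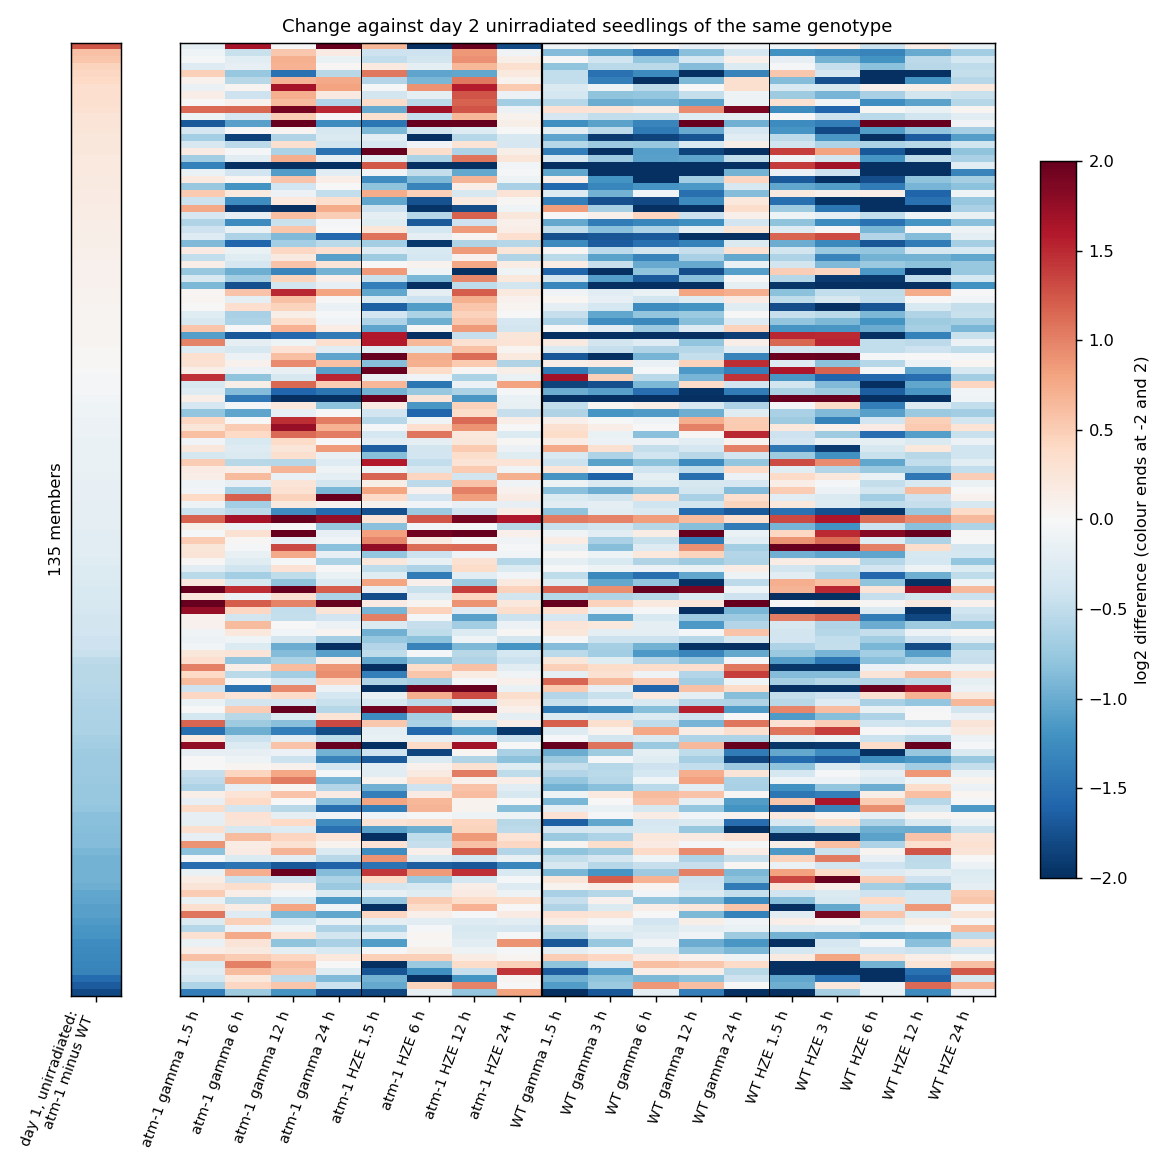
Change against unirradiated day 2 seedlings of the same genotype (log2, colours end at -2 and 2), one row per member, atm-1 groups left of the thick line and WT groups right of it. Rows run from the highest to the lowest day 1 difference between the genotypes, shown in the narrow strip. The 12 h columns were used by the rule, and the WT columns hold more blue (lower) rows than the atm-1 columns of the same time.

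Without radiation, atm-1 and WT of day 2 were compared directly, as groups the rule did not use. Of the 135 members, 0 were called in either direction with limma, beside 0.21% of all genes called higher and 0.457% called lower, and 25 members had an unadjusted p under 0.05. The median of atm-1 minus WT was 0.10, against 0.01 over all genes. On day 1 the same median was -0.20.

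Few genes of the cell cycle lists had a probe set with a single gene. The lists are partial: TOPII, BUB3.1, WYR and FU, members given above, are on none of them and are not in the list counts. Of 49 listed genes of the G2 phase and mitosis 10 were measured, of which 3xHMG-box1 is a member, of 17 replication genes 1, of 31 histone genes 8, of which HTB1 and AT2G37470 are members, of 15 DNA damage response genes 2, and of 9 MYB and E2F regulators 0. In WT, 9 of the 10 mitotic genes were called lower than day 2 at 6 h after gamma rays and 9 after HZE, with medians of -0.53 and -0.63. Over all genes, 12.0% and 17.1% were called lower in WT at these times, and 15.9% and 14.6% in atm-1. In atm-1, 5 of the mitotic genes were called lower after gamma rays and 6 after HZE, with medians of -0.43 and -0.62. The difference of change was called for 1 of them after gamma rays, 3xHMG-box2 with 1.04 (SE 0.30, adjusted p = 0.0412), and for 0 after HZE with limma. Of the 8 histone genes 3 were called higher in atm-1 after gamma rays (HTB1, HTB2 and AT2G37470) and 2 after HZE (HTB1 and HTB2), with HTB2 at 1.33 and 1.21 (SE 0.22 in both). Of all genes, 1.03% and 1.16% were called higher in atm-1 at 6 h after gamma rays and HZE. HTB1, HTB2, AT2G37470 and 3xHMG-box2 all met the 12 h thresholds of the rule. AUR1, AUR2, AUR3 and 3xHMG-box1 also met them and were not called at 6 h. The replication gene measured, PRL, encodes a subunit of the MCM helicase and was left out of the set by name. Its difference of change was 0.14 after gamma rays (SE 0.18, adjusted p = 0.761) and 1.27 after HZE (SE 0.18, adjusted p = 1.21e-05). Of the 2 DNA damage response genes measured, ATMND1, named for the meiotic recombination factor MND1, went the other way, with -1.50 after gamma rays (SE 0.23, adjusted p = 5.56e-05) and -1.88 after HZE (SE 0.23, adjusted p = 1.38e-06). The other damage response gene, ATLIG4, was not called. Its difference was 0.15 after gamma rays (SE 0.22, adjusted p = 0.786) and -0.09 after HZE (SE 0.22, adjusted p = 0.951). The single meristem gene and the 4 stomatal lineage genes had 0 calls in the genotype difference at 6 h with limma.

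The members lay on all 5 chromosomes, with 33, 16, 30, 18 and 38 of them on chromosomes 1 to 5, or 1.02%, 0.854%, 1.19%, 1.02% and 1.32% of the genes measured on each. Among them 3 pairs were neighbours in the gene table: COR15B and COR15A, AT3G23880 and TOPII, and AT3G28310 and AT3G28320. A symbol other than the locus code was given for 20 of the 135, and 29 had a mean level under 5. FU and AT1G31690 had a second probe set, which gave smaller differences: 0.82 and 0.64 for FU after gamma rays and HZE, against 1.14 and 0.80 on the probe set used, and 0.83 and 0.47 for AT1G31690, against 1.12 and 0.75.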

How the data were processed

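Log2 expression values per probe set, as the authors deposited them, came from GCOS 1.2 and then RMA (affy package), according to the submitters' processing notes, with RMA settings not given in the sources used here. No further normalisation was applied. Of 22810 probe sets, 64 controls were left out and 13513 had 1 gene in the platform annotation. Of these, 13436 matched the gene table (assembly TAIR10.1), giving 13355 genes. All 44 arrays entered 1 group-means model (limma 3.58.1, R 4.3.3, eBayes with no trend, 22 residual plus 7.82 prior degrees of freedom), adjusted by Benjamini-Hochberg within each of 21 comparisons. Precision is limited by 2 arrays per group. On simulated data for the gamma 6 h genotype difference over 13355 genes, 33% of 1.5-fold and 77% of 2-fold changes were called, with 3 false calls. Named members were the 15 with the largest mean 12 h difference and up to 15 with a symbol. Also named were 3 genes on either side of the threshold and list genes. Members called at 24 h after either radiation, or in at least 3 genotype differences, were added after their values were seen. Others named were chosen after their values were seen. Members, lists and tests were chosen with earlier results of these data known. Alternatives were a replicate block, cyclic loess, a mean level of at least 5, eBayes with trend, levels without controls, day 2 controls and each array left out. Sequences were not used here.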

Additional observations from a re-analysis of the deposited data

Results flagged for a closer look

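Genotype differences of change that passed the test are given here because atm-1 and WT differed under the same treatment, and all are higher in atm-1. They number 21 members at gamma 1.5 h, 22 at gamma 6 h, 1 at gamma 24 h, 1 at HZE 1.5 h, 24 at HZE 6 h and 1 at HZE 24 h. As shares of the members these are 15.6%, 16.3%, 0.741%, 0.741%, 17.8% and 0.741%. Of all genes, 2.34%, 1.03%, 0.0899%, 0.524%, 1.16% and 0.0599% were called higher in the same comparisons.

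At 1.5 h after gamma rays the named members differed as follows, in log2 units of atm-1 change minus WT change. AT3G28320 and AT3G06070 differed by 1.40, AT5G38910 and GSTU26 by 1.45, AT4G10910 by 1.54, AT4G15830 by 0.93, AT1G54740 and AT3G27050 by 0.91, AT5G54970 by 0.84 and AT5G03230 by 0.83. With 1 array left out in turn, the call was lost in 6 of 8 refits for AT5G38910 and in 5 for AT4G15830. It was lost in 3 for AT3G06070, GSTU26 and AT5G54970, in 1 for AT1G54740 and AT3G27050, and in 0 for the others. At 1.5 h after HZE, AT3G06070 differed by 1.25.

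At 6 h after gamma rays AT3G27050 differed by 2.33, ATLP-1 by 2.24, AT4G29030 by 1.59, AT3G28310 by 1.45 and AT3G28320 by 1.36. Smaller differences were found for AT4G10910 at 1.07, AT2G37470 at 1.06, AT5G20790 at 1.01, AT5G54970 at 1.00, TOPII at 0.99, UBC20 at 0.82, AT1G54740 at 0.77 and HTB1 at 0.73. The call was lost in 7 of 8 refits for HTB1, in 6 for AT4G10910 and in 5 for UBC20. It was lost in 4 for TOPII, AT1G54740 and AT3G28310, in 1 for AT3G28320, and in 0 for the others.

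At 6 h after HZE AT3G27050 differed by 2.33, AT4G10910 by 2.05, AT5G54970 by 1.68, COR15B by 1.61 and AT3G28320 by 1.53. Smaller differences were found for AT4G33550 at 1.23, AT5G03230 at 1.06, HTB1 at 1.03, TOPII at 1.02, AT1G54740 at 0.95 and ATLP-1 at 0.88. The call at 6 h after HZE was lost in 6 of 8 refits for TOPII and in 4 for AT4G33550 and ATLP-1. It was lost in 3 for AT1G54740 and in 0 for the others. At 24 h AT5G20790 differed by 2.40 after gamma rays and AT3G27050 by 1.29 after HZE.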

How the results depend on the processing

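Limits: each group has 2 arrays, within-genotype changes cannot be told apart from time of day in most groups, and the 6 genotype differences share their day 2 arrays. Under every alternative tried, each of the 293 called values of the named members kept its sign. Over these, 227 of the alternative values no longer passed, 221 of them with an array left out and 6 after cyclic loess, and 2281 kept their call. Of 37 called genotype differences of named members, 18 kept the call with any 1 array left out and 12 lost it in at least 4 of 8 refits. The rule found 135 members also after cyclic loess, 134 of them shared, 93 genes with day 2 controls and 106 with a mean level of at least 5.

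With genotypes compared directly at the same time, without controls, 43, 55 and 17 members were called at gamma 1.5, 6 and 24 h, and 18, 50 and 33 at HZE 1.5, 6 and 24 h, in place of 21, 22, 1, 1, 24 and 1. Of these, 42, 54, 15, 16, 49 and 29 were higher in atm-1, beside 4.46%, 3.71%, 1.86%, 1.59%, 4.02% and 0.973% of all genes, and 1, 1, 2, 2, 1 and 4 lower, beside 4.5%, 8.04%, 1.98%, 2.57%, 4.56% and 1.62%. After cyclic loess 2 were called at gamma 24 h, 3 at HZE 1.5 h and 2 at HZE 24 h. With a mean level of at least 5, which leaves 106 members, 0 were called with limma at gamma 24 h, 2 at HZE 1.5 h and 2 at HZE 24 h, and the cause was not tested beyond AT5G20790, the member called at gamma 24 h, which has a mean level under 5. With an eBayes trend 2 were called at HZE 1.5 h. The cause of the other moves was not tested.

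With each array left out in turn, the members called ranged from 12 to 25 at gamma 1.5 h, 14 to 25 at gamma 6 h, 1 to 3 at gamma 24 h, 0 to 3 at HZE 1.5 h, 14 to 21 at HZE 6 h and 1 to 4 at HZE 24 h. Against day 2 they ranged from 3 to 8 in atm-1 at HZE 24 h and from 8 to 19 in WT at HZE 24 h, and from 0 to 2 between the genotypes on day 2. The number of members by the rule ranged from 123 to 159.

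With the replicate number as a block, 21, 24 and 1 members were called at gamma 1.5, 6 and 24 h and 1, 24 and 1 at HZE 1.5, 6 and 24 h, and no other count moved by over 1.5 times. Same-numbered arrays of the groups compared correlated at -0.128 to 0.183 in their deviations from group means, over 0.1 in 5 of 15 comparisons, so the numbers were not taken as pairs. Whether they follow the 2 HZE runs was not known. For atm-1 gamma 6 h, whose correlation was -0.128, the crossed numbers, tried after seeing the data, called 48 members, the numbers as labelled 47 and no block 45.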

Other observations

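A small share of the probe sets outside the single-gene annotation met the 12 h thresholds, counted on the arrays of the rule. Of 9233 probe sets without a single gene, 133 (1.44%) met both thresholds, against 1.05% of the genes measured. They are unnamed here. In the other direction, 35 genes with a single-gene probe set had a 12 h change at least 0.7 log2 units higher in WT than in atm-1 after both radiations.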
